A study of Mus musculus with 12 samples.

Results

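The 9 genes described here carry the insulin signal in the hepatocyte. They are the receptor gene Insr, the receptor substrates Irs1 and Irs2, the PI3-kinase regulatory subunit Pik3r1, the kinases Akt1 and Akt2, the FoxO transcription factors Foxo1 and Foxo3, and Igfbp1, a liver-secreted protein that binds insulin-like growth factors. The genes were chosen by name as parts of this pathway, and every array probe whose RefSeq accession belongs to one of them was taken. Of 17012 named genes on the array, 8 of these 9 had probes, 14 in all of 41174. Irs2 had no matched probe. Of the 14 probes, 13 probes of 7 genes passed the filter on dim signal and were tested. The single Insr probe did not.

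RNA came from primary hepatocytes of C57BL/6 mice with intact PGC-1alpha (+/+) or without it (-/-). The protein, a product of Ppargc1a, coactivates gluconeogenic and mitochondrial genes. From each mouse 1 culture received the hairpin adenovirus labelled shTLS and another a control hairpin virus. The multiplicity of infection was 5, and cells were harvested 24 h after infection. All 4 groups shared the medium, with 10% serum, 100 nM insulin and 100 nM dexamethasone, so no culture without insulin was measured and every value below is a level under insulin. There were 3 mice per genotype, each giving 1 culture per vector, hence 4 groups of 3 arrays. The labels give neither the age of the mice nor the deleted part of Ppargc1a.

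As background, insulin binding activates the receptor tyrosine kinase, which phosphorylates the Irs proteins. These recruit PI3-kinase through its regulatory subunit, and the lipid it makes brings Akt to the membrane. Akt then phosphorylates FoxO factors, which leave the nucleus, so that FoxO-driven genes such as Igfbp1 fall after a meal. Transcript levels, as measured here, do not show phosphorylation or the location of FoxO proteins.

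Promoter sequence is shown for Igfbp1, the classical FoxO-driven gene of the liver, and for Irs1, the only gene of the group with a pair of matches. The search covered the 250 bases before each start site in RefSeq (GRCm38.p6) for GTAAACA, the core word bound by FoxO factors, and CAAAACA, the word of insulin-responsive elements, on both strands (TGTTTAC and TGTTTTG as reverse complements). The words do not overlap each other in the sequences printed. Capitals mark the matches, and both sequences run 5′ to 3′ in the direction of the gene. Igfbp1 lies on the plus strand at chr11:7197537-7197786 and Irs1 on the minus strand at chr1:82291440-82291689.
Igfbp1: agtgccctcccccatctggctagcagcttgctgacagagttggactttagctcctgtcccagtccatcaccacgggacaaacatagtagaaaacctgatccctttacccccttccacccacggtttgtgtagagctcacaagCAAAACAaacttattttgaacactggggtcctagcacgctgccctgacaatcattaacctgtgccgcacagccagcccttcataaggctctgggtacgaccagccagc
Irs1: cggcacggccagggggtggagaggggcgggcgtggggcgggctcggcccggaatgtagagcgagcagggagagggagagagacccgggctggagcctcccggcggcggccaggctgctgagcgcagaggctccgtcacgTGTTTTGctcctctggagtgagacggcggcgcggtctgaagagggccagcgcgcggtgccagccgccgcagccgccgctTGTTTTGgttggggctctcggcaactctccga
The Igfbp1 match starts 108 bases before the start site, and the Irs1 matches start 111 and 32 bases before it. Of the 13 promoters listed for 8 of the genes, 4 held a match, 1 each of Igfbp1, Irs1, Irs2 and Akt1. Irs2 had TGTTTTG 37 bases and 1 of 2 Akt1 promoters TGTTTAC 161 bases before the start. No match was found in these windows of Foxo1, Foxo3, Akt2 and Pik3r1. Over 32851 mouse promoters, 3.17% held GTAAACA, 5.56% CAAAACA and 8.51% either word. A match describes the letters and shows no binding.

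The values are log2 expression after quantile normalization by the authors. On each array 22706 to 26679 probes stood well above background, and replicates of a group correlated by 0.921 to 0.971. Before normalization, the 75th percentile of the signal was 810.4 to 1064 with the control hairpin and 343.5 to 634.6 with shTLS (6 arrays each), without overlap. Arrays of one number shared a slide, and a given group sat at one place of every slide, so the place and the group cannot be told apart. The Ppargc1a probe read 9.21 ± 1.09 in +/+ and 9.38 ± 0.34 in -/- control cells (SD, n = 3), and without knowing what was deleted it checks nothing. Hepatocyte markers averaged 12.66 to 13.43 over the groups (9 of 10 genes measured). Per array they read 12.75 to 14.72 in +/+ and 12.74 to 13.89 in -/- control cells, highest in mouse 1 of each genotype. With shTLS they read 12.825 to 13.10 and 12.215 to 13.00. Macrophage markers (12 of 14 tested) were present too, at 6.56 to 9.40 per array in +/+ and 8.12 to 10.99 in -/- control cells, and at 6.29 to 8.32 and 7.29 to 10.18 with shTLS. In bulk RNA, fewer cells of a type and less RNA per cell cannot be told apart.

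The study compared shTLS with the control hairpin in cells with and without PGC-1alpha. With shTLS, most of these insulin pathway genes read lower, in both genotypes, and Foxo3 was the exception. Averaged over genotypes, 12 of 13 probes had a negative difference, with a median of -0.86 on the log2 scale against -0.02 over all 24962 probes tested. Pik3r1 holds 4 of these probes, and with the brightest probe per gene the median was -0.57. With 75th percentile scaling of all 13 it was -0.58. None of the 13 passed limma at an adjusted p of 0.05 with the group means alone, where 7.77% of all probes passed, and 6 of 13 had an unadjusted p under 0.05 (27.9% of all probes). The cultures are paired by mouse, and arrays of a number shared a slide. The fit was therefore also made with the replicate number as a block. A number joins a +/+ and a -/- mouse, so this block removes differences between numbers or slides and does not pair by mouse alone. In that fit 8 of 13 probes fell, those of Irs1, Igfbp1, 1 of 2 Foxo1 probes, 1 of 2 Akt2 probes and all 4 of Pik3r1, beside 14% of all probes called lower, 14.7% called higher and 28.8% called either way. Irs1 counts among them, though it passed the filter only through the -/- control arrays. With the mouse as a random block 9 fell, Irs1 again included, beside 18.9% of all probes called lower and 37.5% called either way. The blocked call rests on all 3 numbers: without number 1 it called 0 probes, without number 2 it called 6 (5 lower, and Foxo3 higher), and without number 3 it called 2 (9.07%, 20.7% and 10.2% of all probes). Within mice, 9 of 13 probes were lower with shTLS in all 6, as were 19.1% of all probes tested. In single genotypes 0 of 13 passed without a block, in +/+ beside 0.985% and in -/- beside 0.769% of all probes, and 1 of 13 had an unadjusted p under 0.05 in each (16.3% and 11.8% of all probes). With the block the -/- comparison still held 0 calls, beside 5.86% of all probes.

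**Figure D1:**
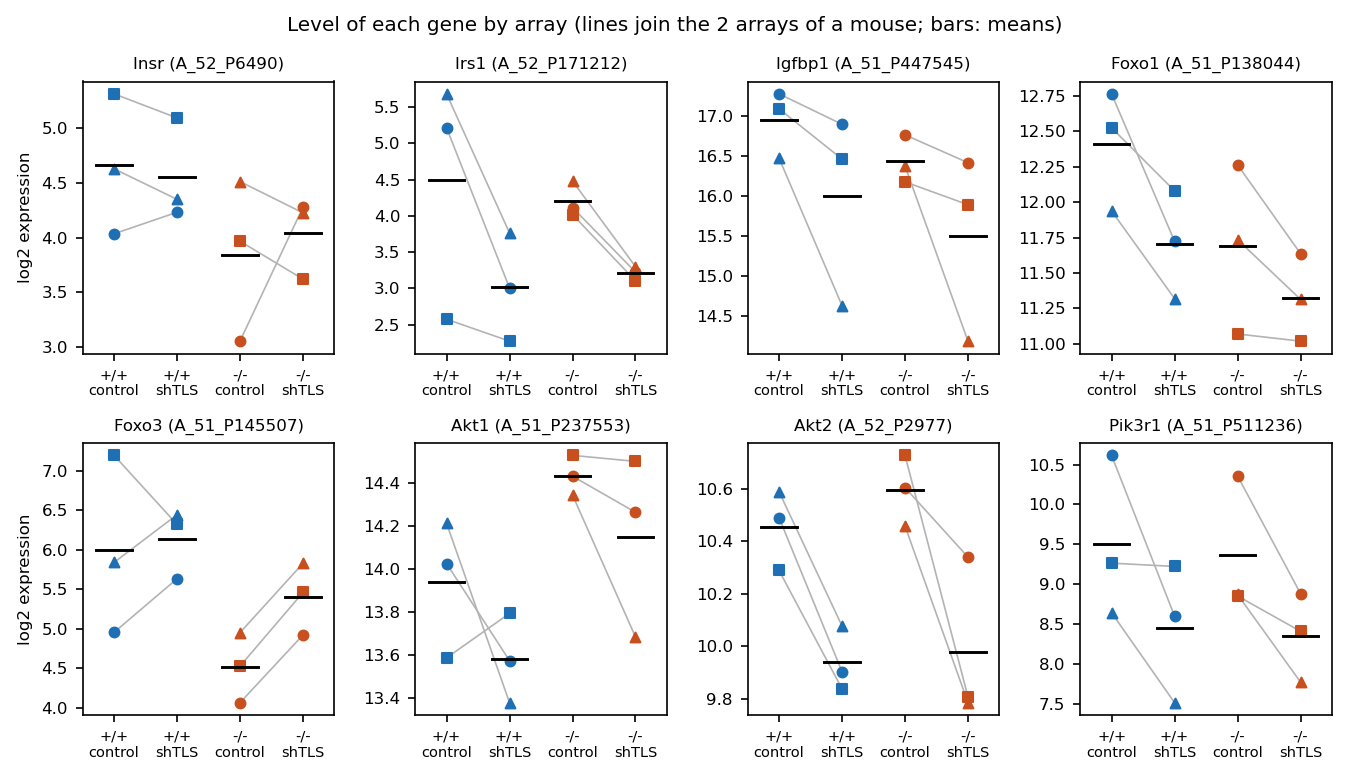
Log2 expression of 8 genes, 1 probe each, in the 4 groups (genotype and vector on the x axis, each panel with its own y axis). Each symbol is 1 array, its shape the mouse number, a grey line joins both cultures of a mouse, and a black bar is the mean of 3. Lines for Irs1, Igfbp1, Foxo1, Akt2 (A_52_P2977) and Pik3r1 all slope down towards shTLS, while 5 of 6 Foxo3 lines slope up. The other Akt2 probe, not drawn, was lower in 5 of 6 mice.

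At the receptor, Insr lay near the limit of detection. Its probe was well above background on 2 of 3 arrays in every group, and a gene needed all 3 arrays of at least 1 group to be tested. It read 4.03, 5.31 and 4.63 in +/+ control cells and 4.23, 5.09 and 4.35 in the same mice with shTLS. In -/- mice it read 3.05, 3.97 and 4.51 with the control and 4.28, 3.62 and 4.23 with shTLS. The groups overlapped, and 4 of 6 mice were lower with shTLS. Irs2, the substrate most studied in the fasted liver, has no value here.

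Irs1 encodes a docking protein that couples the receptor to PI3-kinase. It was dim as well, well above background on 0 of 3 +/+ and 1 of 3 -/- shTLS arrays. Only the -/- control arrays, the higher side of the -/- comparison, met the filter for it. Its lack of overlap in -/- cells and its calls are therefore no independent support for a fall. In +/+ mice 1 to 3 it read 5.22, 2.57 and 5.68 with the control and 3.00, 2.27 and 3.76 with shTLS. In -/- mice it read 4.12, 4.02 and 4.48 with the control and 3.22, 3.10 and 3.30 with shTLS. Every mouse was lower with shTLS, and in -/- cells the groups did not overlap, as for 9.41% of all probes. The +/+ control of mouse 2, at 2.57, stood far below both other +/+ controls. The average difference was -1.24 (SE 0.48, limma adjusted p = 0.125), and with the block Irs1 fell (adjusted p = 0.0340). With normexp background correction, which draws dim signals together, the average difference was -0.20, with -0.24 in +/+ and -0.16 in -/- (adjusted p = 0.299 for the average). Without that +/+ control array the fit without a block called Irs1 on average (adjusted p = 0.00759) and in +/+ (adjusted p = 0.0272). Since no +/+ shTLS array measured it well above background, fitted differences give no size in +/+. The +/+ control mean of 4.49 was 1.97-fold above a floor of 3.51 set for +/+ shTLS (measured mean 3.01). The floor averages, over arrays, the lowest signal well above background or the value read, whichever is higher. Only 2 of 3 +/+ control arrays were well above background, and normexp gave a smaller difference, so this fold is no firm lower bound.

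Pik3r1 encodes the regulatory subunit that docks PI3-kinase to Irs proteins, and its 4 probes gave the most uniform picture. Its brightest probe, A_51_P511236, read 10.61, 9.27 and 8.64 in +/+ control cells and 8.60, 9.22 and 7.52 with shTLS. In -/- cells it read 10.36, 8.85 and 8.87 with the control and 8.88, 8.41 and 7.78 with shTLS. The first mouse of each genotype had the highest control value and the largest fall, -2.01 in +/+ and -1.47 in -/-, and mouse 2 the smallest, -0.04 and -0.44. The other probes read 5.40 to 9.20 on control arrays and 5.02 to 7.38 with shTLS, and mouse 1 had the largest fall in all of them. The probes belong to 2 RefSeq transcripts, A_52_P235476 to one and the other 3 to another, and correlated by 0.870 to 0.965 over 12 arrays.

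Averaged over genotypes, the 4 Pik3r1 probes differed by -1.03, -0.90, -0.98 and -0.92 on the log2 scale (SE 0.37 to 0.44, limma adjusted p = 0.133 to 0.213). That is 1.86- to 2.04-fold lower with shTLS. With normexp background the differences were -0.46 to -0.80. Without -/- control array 1, A_52_P235476 differed by -0.54, and without +/+ control array 1, A_52_P307938 by -0.65. All 4 fell with the block (adjusted p = 0.0191 to 0.0318). In +/+ the probes differed by -0.88 to -1.097 and in -/- by -0.85 to -1.004, and neither genotype alone passed, with or without the block. Without +/+ control array 1 the +/+ differences were -0.35 to -0.51. Groups did not overlap for A_52_P407239 in -/- cells, as for 9.41% of all probes, and overlapped for the other probes.

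The kinases split by gene and by probe. Akt1, which serves growth and survival in most tissues, read 14.03, 13.59 and 14.21 in +/+ control cells and 13.57, 13.79 and 13.38 with shTLS at A_51_P237553. The -/- cultures read 14.43, 14.53 and 14.34 with the control and 14.26, 14.50 and 13.68 with shTLS. This probe is spotted 10 times per array, and the spots of an array varied by a log2 SD of 0.03 to 0.09, less than the mice did. Its difference with shTLS was -0.32 (95% interval -0.75 to 0.11, limma adjusted p = 0.302), and 5 of 6 mice were lower. The dimmer Akt1 probe, A_52_P418014, read 5.71 to 6.87 over the 12 arrays and differed by -0.11 (-0.67 to 0.46, adjusted p = 0.812), with 3 mice lower and 3 higher. Neither passed with the block, and with each array scaled to its 75th percentile the dimmer one had a positive difference of 0.07.

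Akt2 encodes the form that predominates in insulin control of liver metabolism. At A_52_P2977 it read 10.49, 10.29 and 10.59 in +/+ control cells and 9.90, 9.84 and 10.08 with shTLS. Without PGC-1alpha it read 10.60, 10.73 and 10.46 with the control and 10.34, 9.81 and 9.79 with shTLS. All shTLS arrays lay below all controls of their genotype, as for 9.61% of all probes in +/+ and 9.41% in -/-. This was the only member probe with no overlap in both genotypes, and the share of all probes with both was not counted. Akt2 differed by -0.57 at this probe (SE 0.17, limma adjusted p = 0.0607) and fell with the block (adjusted p = 0.0208), 1.48-fold lower. Without -/- shTLS array 1 it passed without a block too, at -0.66 (adjusted p = 0.0400). The other Akt2 probe, A_51_P408044, read 8.58 to 9.62 on control arrays and 8.59 to 9.37 with shTLS. It differed by -0.16 (95% interval -0.63 to 0.31, adjusted p = 0.657). The probes of Akt2 correlated by 0.05 over 12 arrays, so the fall holds for 1 probe and is uncertain for the gene.

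Foxo1 is the main FoxO factor of the fasted liver and drives gluconeogenic genes and Igfbp1. Its brighter probe, A_51_P138044, read 12.76, 12.53 and 11.94 in +/+ control cells and 11.72, 12.08 and 11.32 with shTLS. Its -/- values were 12.26, 11.07 and 11.74 with the control and 11.64, 11.02 and 11.31 with shTLS. All 6 mice were lower with shTLS, by 0.05 to 1.04, and both groups overlapped in each genotype. The probe differed by -0.53 (SE 0.26, limma adjusted p = 0.202, with the block 0.0962).

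The other Foxo1 probe, A_52_P453884, read 12.36, 11.69 and 11.19 in +/+ control cells and 11.15, 10.48 and 10.43 with shTLS, with no overlap (9.61% of all probes in +/+). Levels in -/- mice were 11.59, 10.64 and 11.09 with the control and 10.97, 10.24 and 10.14 with shTLS. Averaged over genotypes it differed by -0.86 (SE 0.27, adjusted p = 0.0757) and fell with the block (adjusted p = 0.00385), 1.82-fold lower. In +/+ alone the difference was -1.06 (adjusted p = 0.225), and with the block it was the only member called in 1 genotype (adjusted p = 0.0148, beside 5.37% of all probes called lower). The -/- difference was -0.66 (adjusted p = 0.531, with the block 0.0954). In the fit without a block the difference between genotypes was 0.40 (95% interval -0.81 to 1.61, adjusted p = 1.0). Both Foxo1 probes correlated by 0.866 over 12 arrays.

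Foxo3, the second FoxO gene, did not follow Foxo1. It read 4.95, 7.19 and 5.84 in +/+ control cells and 5.63, 6.32 and 6.44 with shTLS. Without PGC-1alpha it read 4.06, 4.52 and 4.95 with the control and 4.92, 5.46 and 5.83 with shTLS. The 3 -/- mice were higher with shTLS by 0.86 to 0.93, as were +/+ mice 1 and 3, while +/+ mouse 2, which had the highest control value, was lower by 0.87. The average difference was 0.51 (SE 0.36, limma adjusted p = 0.377, with the block 0.160), and it was 0.25 without +/+ control array 1. Under scaling to the spike-in RNA it turned to -0.13, where the median of all probes was -0.82. With normexp background it was 0.13, with 0.02 in +/+ and 0.23 in -/-. With number 2 left out, the block called it higher, at 0.75.

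Igfbp1, the secreted readout of hepatic FoxO activity, was read at a bright probe. It read 17.27, 17.09 and 16.47 in +/+ control cells and 16.89, 16.46 and 14.63 with shTLS. The -/- mice had 16.76, 16.18 and 16.37 with the control and 16.41, 15.89 and 14.19 with shTLS. All 6 mice were lower, mouse 3 of each genotype by far the most. Falls were 0.38, 0.63 and 1.84 in +/+ mice and 0.35, 0.29 and 2.18 in -/- mice. Igfbp1 differed by -0.94 (SE 0.45, limma adjusted p = 0.202), 1.92-fold lower, and fell with the block (adjusted p = 0.0377). Without shTLS array 3 of +/+ or of -/- the unblocked difference was -0.60 or -0.62. The difference between genotypes was 0.01 (95% interval -1.99 to 2.01).

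**Figure D2:**
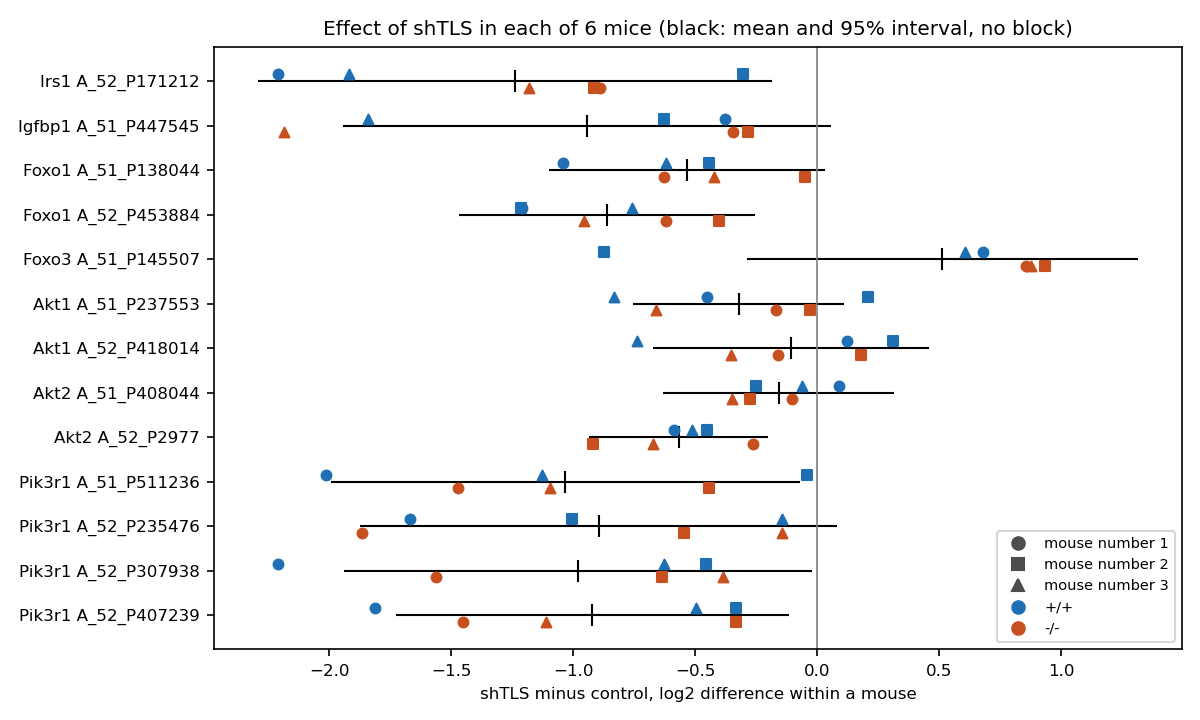
Difference between shTLS and control within each of 6 mice (x axis, log2) for the 13 tested probes (y axis), with colour for genotype and shape for mouse number. The black line is the mean and its 95% interval from the fit without a block. Igfbp1 has 1 far point per genotype, both of mouse 3, and the Pik3r1 probes have their farthest points in mouse 1.

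Beside these falls other values moved with the vector. Signal before normalization was lower on every shTLS array, as given above. All 12 macrophage markers tested had negative average differences with shTLS (median -0.92), as had 8 of 9 hepatocyte markers (median -0.62). The hepatocyte mean fell most in mouse 1, from 14.72 to 13.10 in +/+ and from 13.89 to 12.215 in -/-. It also fell in -/- mouse 2, but not in +/+ mice 2 and 3 or -/- mouse 3. Cholangiocyte means were lower with shTLS in every mouse. Endothelial group means went from 7.93 to 7.86 in +/+ and from 8.40 to 8.74 in -/-, stellate means from 9.58 to 9.32 and from 10.15 to 9.94. Their part in the members' differences was not tested. The scaling moved the medians of the members and of all probes in the same direction, and it changed the number of calls. With arrays scaled to 8 spike-in probes, 12 of 13 member probes fell and their median was -1.48. The median of all probes was then -0.82, and 52.8% of all probes were called lower (55.6% either way). The members' median lay below that of all probes under both scalings. Under quantile values 58.2% of the calls over all probes were higher with shTLS, and under spike-in values 5.00% were.

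**Figure D3:**
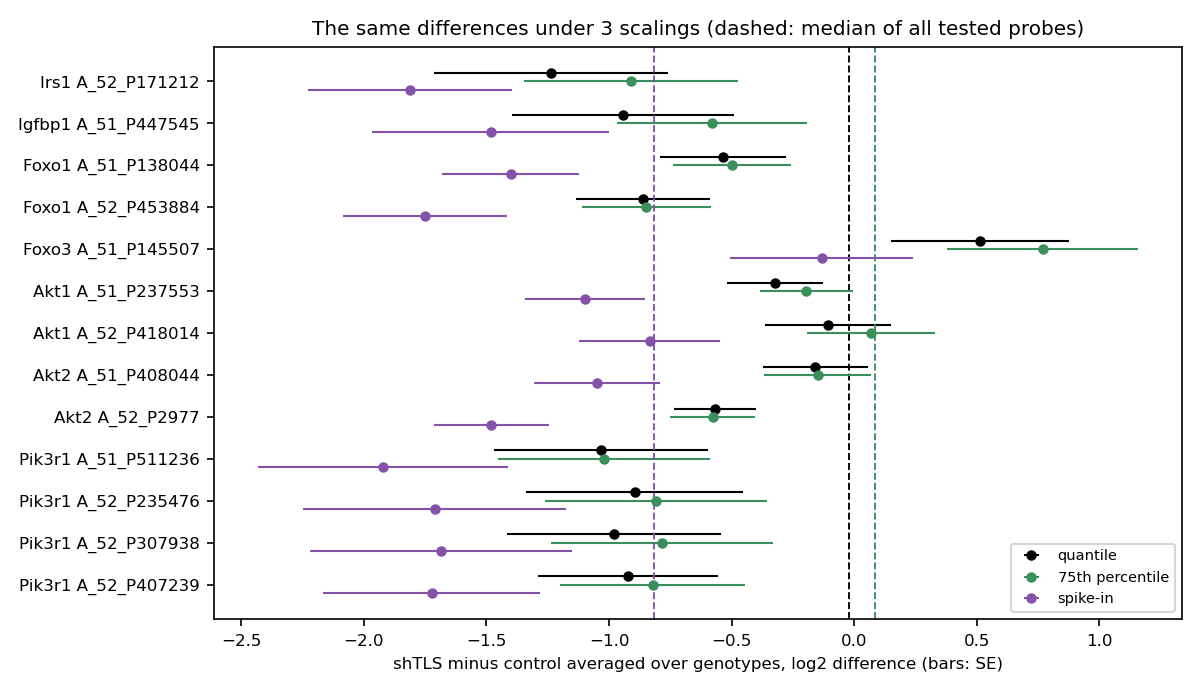
Average shTLS minus control difference (x axis, log2, bars are SE) of the 13 member probes under quantile, 75th percentile and spike-in scaling. Dashed lines mark the median of all probes under each scaling. The spike-in points lie to the left together with their dashed line at -0.82, and Foxo3 changes side of 0.

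The next comparison asked what PGC-1alpha does to these genes. None of the 13 probes passed in -/- against +/+ cells with the control hairpin, with shTLS or averaged over both, with or without the block. Of all probes 0.0801%, 0.0721% and 0.0881% passed without the block and 0.172%, 0.156% and 0.505% with it. Unadjusted p was under 0.05 for 1, 0 and 1 probe (3.14%, 2.16% and 2.75% of all probes). Foxo3 was that probe. With the control hairpin all -/- arrays lay below all +/+ arrays, narrowly, as for 3.95% of probes. The difference was -1.48 (95% interval -2.62 to -0.35, limma adjusted p = 1.0), and it was -0.88 without +/+ control array 2 and -0.55 with normexp background. With shTLS Foxo3 differed by -0.73 (adjusted p = 1.0) and the groups overlapped.

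Akt1 at A_51_P237553 was the only member with all -/- control arrays above all +/+ control arrays, as for 3.04% of probes, with a difference of 0.49 (95% interval -0.12 to 1.103, adjusted p = 1.0). Foxo1 differed between genotypes by -0.72 and -0.64 at its 2 probes with the control hairpin (adjusted p = 1.0 for both), and by -0.41 at each without -/- control array 2. Without +/+ control array 1 the second probe differed by -0.33. Igfbp1 differed by -0.51 (-1.92 to 0.90) and Pik3r1 by -0.40 to 0.13. The intervals of Pik3r1 and Igfbp1 reached beyond 1 on the log2 scale at one end at least, so the precision with 3 mice per genotype is low. Marker levels differed by genotype too. All 12 macrophage markers read higher in -/- cells, with a median average difference of 1.78. Endothelial markers were higher in 9 of 10 (median 0.76) and stellate markers in 6 of 7 (0.81), while 6 of 9 hepatocyte (-0.35) and 4 of 7 cholangiocyte markers (-0.35) were lower. No marker passed the test, and the part of these cells in the members' values was not tested.

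Whether shTLS acted differently without PGC-1alpha was tested as the difference of both effects. No member passed in limma, nor did any of the 24962 probes (0%), and 66 of them (0.264%) and 0 members had an unadjusted p under 0.05. Member differences ran from -0.17 for an Akt2 probe to 0.75 for Foxo3 (95% interval -0.85 to 2.36). All intervals given for this difference come from the fit without a block, which does not use the pairing by mouse. They are wide, and the spread within mice can be smaller. At Foxo1 A_52_P453884 the per-mouse SD was 0.26 in +/+ and 0.28 in -/- (n = 3 each). No member was called with the replicate number or the mouse as a block either. Equal effects in both genotypes are not shown.

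Other pathway genes, in 8 lists by role, were measured through their brightest tested probe. Here calls are for shTLS averaged over genotypes, with group means alone and then with the block. Over all probes 7.77% passed in the first fit and 28.8% in the second (14% lower, 14.7% higher), and 27.9% had an unadjusted p under 0.05 in the first. Among 9 tested receptors and adaptors no gene passed in either fit, and the median was 0.04. Igf1r, the receptor for insulin-like growth factors, differed by 0.54 (limma adjusted p = 0.311). Among 7 PI3-kinase subunits and Pdpk1 the median was -0.03, and with the block 1 gene rose. This was Pdpk1, the kinase that activates Akt, at 2.46 (adjusted p = 0.0594, with the block 0.00646). Its other 2 probes differed by 0.18 and 0.09, so this rise is uncertain for the gene.

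Among 14 tested brakes on insulin signalling the median was 0.15, and with the block 1 rose and 2 fell, 3 of 14 beside 28.8% of all probes. Grb14, an adaptor that inhibits the insulin receptor, fell by 1.34 (adjusted p = 0.0700, with the block 0.0200). It read 11.34 to 13.53 on control arrays and 10.67 to 11.99 with shTLS. Inpp4b, a phosphatase of PI3-kinase lipids, was called lower with the block (adjusted p = 0.0347), but it was well above background on only 6 of 12 arrays and on 0 of 3 +/+ shTLS arrays, so no size is given. In -/- mice it read 6.32, 6.81 and 3.65 with the control and 3.72, 4.19 and 1.31 with shTLS. Inpp4a, its paralog, rose by 0.70 with the block (adjusted p = 0.0478). Under spike-in scaling it read -0.03, where the median of all probes was -0.82. In the Akt branch 1 of 19 genes passed in both fits, with a list median of 0.12. Deptor, an inhibitor bound to mTOR complexes, read 9.47, 8.64 and 8.29 in +/+ control cells and 7.61, 8.37 and 8.08 with shTLS. Its -/- values were 8.95, 8.87 and 8.25 with the control and 7.08, 7.33 and 7.79 with shTLS. It fell by 1.03 (SE 0.26, adjusted p = 0.0370, with the block 0.0186) and was lower in every mouse.

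Downstream of FoxO, the FoxO-induced genes did not move one way. Of 21 tested, 10 had positive and 11 negative differences with a median of -0.08, 0 passed with group means alone (5 at an unadjusted p under 0.05), and with the block 3 rose and 2 fell. These shares of 21 lie below those of all probes, 27.9% and 28.8%. Klf15, a transcription factor of the fasted liver, fell by 1.43 (adjusted p = 0.0709, with the block 0.00922), though its dimmer probe differed by only -0.20. Cited2 fell by 0.82 with the block (adjusted p = 0.0166), while its dimmer probes differed by -0.50 and -0.46 and were not called. Pdk4, which blocks glucose oxidation, rose by 1.27 (adjusted p = 0.0597, with the block 0.0231), and Bcl2l11 and Sesn1 rose with the block by 0.61 and 0.50 (adjusted p = 0.0360 and 0.0462). Under spike-in scaling 2 of 21 had a positive difference, where the median of all probes was -0.82 and 52.8% were called lower. There the difference was 0.42 for Pdk4 but -0.28 for Bcl2l11 and -0.40 for Sesn1. In -/- against +/+ cells 20 of 21 FoxO-induced genes had a negative average difference with a median of -0.38, none called, and under spike-in scaling 17 of 21 did. Among 10 FoxO relatives and partners the median was 0.34, and with the block Foxo6 rose by 1.47 (adjusted p = 0.0394). Ep300, an acetyltransferase, rose by 0.61 (adjusted p with the block 0.0356), and read -0.22 under spike-in scaling. Its dimmer probe differed by 0.35 and was not called (adjusted p with the block 0.114).

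Insulin-induced genes, mostly of fat synthesis, had negative differences in 11 of 12 tested, with a median of -0.55. Called were Srebf1 in both fits, and Gpam and Me1 with the block only. Of all probes 7.77% passed with group means alone and 28.8% with the block (14% lower). Counted in either direction, the calls in this list lie near those shares. Srebf1, the factor through which insulin drives lipogenesis, passed in both fits. It read 13.86, 13.56 and 13.78 in +/+ control cells and 12.87, 13.26 and 12.66 with shTLS. The -/- cultures read 13.96, 13.86 and 13.67 with the control and 13.26, 13.45 and 12.59 with shTLS. All shTLS arrays lay below all control arrays. Within 1 genotype this held for 9.61% of all probes in +/+ and 9.41% in -/-, and the share over both was not counted. Srebf1 fell by 0.77 (SE 0.20, limma adjusted p = 0.0419, with the block 0.00955). With the block Gpam, the first enzyme of triglyceride synthesis, fell by 0.99 (adjusted p = 0.00535) and Me1, which supplies NADPH, by 0.69 (adjusted p = 0.0210). Of 9 tested genes of the IGF axis 6 had negative differences (median -0.79), 0 passed with group means alone (5 at an unadjusted p under 0.05), and with the block 5 fell and 1 rose, beside 27.9%, 14% and 14.7% of all probes. Igfals and Igf1, both secreted by hepatocytes, fell by 1.06 each with the block (adjusted p = 0.00799 and 0.0179, without it 0.0828 and 0.172). Igfbp6, Igfbp3 and Igfbp4 fell by 1.31, 1.05 and 0.79 with the block. The dimmer Igfbp4 probe, A_51_P398971, fell by 1.72 and passed in both fits (adjusted p = 0.0445, with the block 0.00921). With normexp background Igfbp6 differed by -0.35 and Gpam by -0.62. With the block Igf2 rose by 2.14 (adjusted p = 0.0304).

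**Figure D4:**
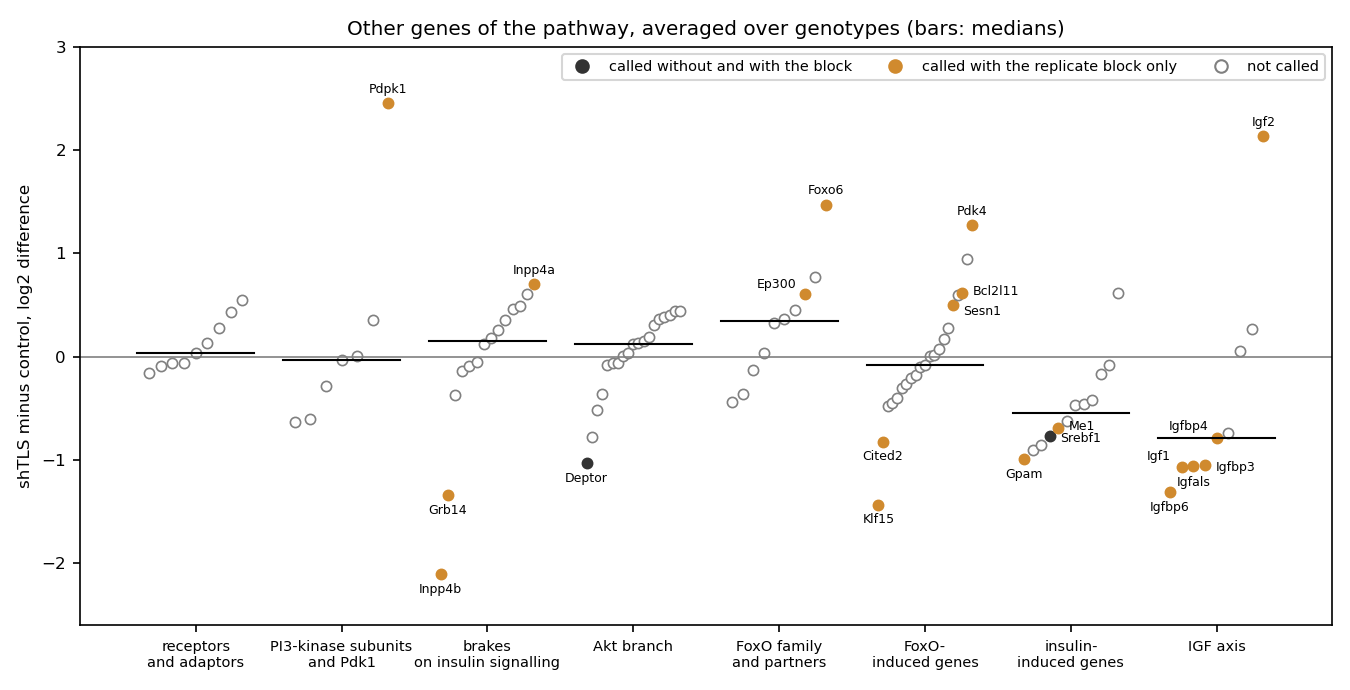
Average shTLS minus control difference (y axis, log2) of each tested gene in 8 lists of pathway genes (x axis), with a bar for the list median. Filled symbols passed limma at an adjusted p of 0.05 with the block, and the dark ones, Deptor and Srebf1, without it too. The medians of the insulin-induced genes, -0.55, and of the IGF axis, -0.79, lie lowest.

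Finally, the genes most like each member in profile over the 12 arrays were taken from 12783 named genes, as a description. Arrays share slides and mice, which raises such correlations. Pik3r1 was most like Fbxo31 and Stat5a (r = 0.972 and 0.960), Igfbp1 like Actr8 and Zxdc (0.954 and 0.938), and Irs1 like Usp2 and H1f10 (0.957 and 0.915). Foxo1 was most like 2210016L21Rik and Slc25a51 (0.949 and 0.945) and Foxo3 like Prr15 and Zfp429 (0.955 and 0.952). For Akt1 the genes were Psmc3 and Qars (0.965 and 0.963), and for Akt2 Gpaa1 and AI837181 (0.953 and 0.948). Within the pathway, Igfbp1 correlated with Pik3r1 by 0.633 to 0.7997 over its 4 probes and with Foxo1 by 0.691 and 0.785. Foxo1 and Pik3r1 correlated by 0.710 to 0.850, and Foxo3 and Akt1 by -0.77 at the brighter Akt1 probe.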

How the data were processed

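RNA of 12 cultures was read on 1-colour (Cy3) Agilent arrays, 4 per slide, with Feature Extraction 10.1.1.1, per the submitters' processing notes. Per the labels, the authors thresholded signals at 1, quantile normalized them and worked on the log2 scale. That deposited table of log2 values is analysed here. The deposited array files hold intensity values on a linear scale, and other columns hold 0 or 1 as a mark of signal well above background, per the file headers. The files were used for the filter and for alternatives, and values recomputed from them correlated with the table by at least 0.999974.

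Tested were the 24962 probes that stood well above background on all 3 arrays of some group. Symbols came from RefSeq accessions (GRCm38.p6), which named 24367 probes and left 16807 unnamed. The headers name another build, so no probe coordinates are given, and promoter coordinates are RefSeq's. Tests used limma 3.58.1 in R 4.3.3 (statmod 1.5.0), 1 fit of 4 group means (8 residual degrees of freedom), two-sided, with Benjamini-Hochberg adjustment over all tested probes. A call is an adjusted p under 0.05. For the genotype difference averaged over vectors the mouse was a random block (within-mouse correlation 0.584). The fit without a block was checked on simulated data with independent arrays. That check does not cover the correlation within mice and slides, nor the fits with a block. The source names give the mouse. Deviations from group means correlated by 0.451 to 0.670 between both cultures of a mouse and by 0.216 to 0.639 between arrays of a slide with the same vector. Arrays of a slide that shared neither genotype nor vector correlated by 0.277 to 0.450, and arrays of different numbers by at most 0.104. The replicate number thus pairs the cultures of a mouse but also joins mice of both genotypes on a slide. An exact test of 3 against 3 arrays cannot go below p = 0.1. The level of the hairpin's target gene is not reported here. All members are named. Of each list all called genes are named up to 6, otherwise the 3 of smallest p. Of pathway lists the brightest tested probe stands for a gene. Members and lists were chosen with earlier results of these data known. Alternatives changed background, scaling, filter, probes, blocks and arrays.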

Additional observations from a re-analysis of the deposited data

Results flagged for a closer look

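Crebbp, an acetyltransferase that binds FoxO factors, had differences of opposite sign in the genotypes. With shTLS its probe A_52_P239850 was lower in all 3 +/+ mice, by 0.72, 0.29 and 0.03, and higher in all 3 -/- mice, by 0.11, 0.06 and 0.10. The mean of the -/- mice minus that of the +/+ mice was 0.44 on the log2 scale. It was selected by these signs alone. Limma's test of the difference between both effects did not pass (without a block, SE 0.44, adjusted p = 1.0). That SE does not use the pairing by mouse. Over mice the SD was 0.35 in +/+ and 0.03 in -/-. With the replicate number or the mouse as a block no probe passed this test either.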

How the results depend on the processing

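Without a block, 0 of 13 member probes were called in each comparison. For shTLS averaged over genotypes, 8 were called with the replicate block, 9 with the mouse as random block, 12 with spike-in scaling, and 1 each (Akt2, A_52_P2977) with normexp background or no filter. Leaving out 1 array gave 0 to 1. Added after seeing the data, the replicate block gave 6 with number 2 left out, 2 with number 3 left out, 0 with number 1 left out, 4 of 7 with the brightest probe per gene and 6 with 75th percentile scaling. In +/+ cells the counts were 5 with spike-in scaling, 1 with the replicate block, 4 with the mouse block, 2 with the block and number 2 left out, 1 with the block and 75th percentile scaling, and 0 to 1 with 1 array left out. In -/- cells 1 (Akt2) was called with the mouse block. The genotype comparisons and the difference of both effects stayed at 0 under every alternative run, and the block changed no call there. Of member values, 2068 kept direction and call, 66 became called and 134 uncalled ones changed sign. Of 15 named list genes with a positive average difference, 11 turned negative with spike-in scaling, among them Grb2 (-0.57) and Pik3ca (-0.55), which were then called (0.28 and 0.35 otherwise). There the median of all probes moves to -0.82. All-probe counts changed with the block too, from 1940 to 7182 averaged, 246 to 3104 in +/+ and 192 to 1462 in -/-. The cause of these changes was not tested. Signal over background limits Insr and Irs1, the background correction sets the size for Irs1, Foxo3 and the dimmer Pik3r1 probes, and the number of arrays limits all values.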

Other observations

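Igf2 and Foxo6 had control values that differed by number in both genotypes. Igf2 read 6.93, 5.41 and 9.75 in +/+ and 6.76, 6.91 and 10.37 in -/- control cells, and 8.59 to 10.87 on the 6 shTLS arrays. Foxo6 read 9.28, 10.01 and 12.31, and 8.69, 9.45 and 11.80, in the same control cultures, against 11.08 to 12.24 with shTLS. The number 3 controls of both genes thus lay within or above the shTLS values. These arrays shared a slide and came from different mice. Glucose-6-phosphatase (G6pc), a FoxO-driven gene of glucose output, ran the other way over control cultures, at 8.43, 6.29 and 5.10 in +/+ and 6.73, 5.30 and 4.34 in -/- cells. With shTLS it read 4.97, 6.64 and 7.52, and 5.10, 6.25 and 7.33, so that it was lower in mouse 1 and higher in mice 2 and 3 of both genotypes.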
